A study of Mus musculus with 24 samples.

Results

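Lysosomal genes were followed in microglia, the resident macrophages of the brain, through demyelination and remyelination, with and without a Cre recombinase meant to delete Dicer1. The set holds 34 genes that encode soluble lysosomal hydrolases, their cofactors, sterol carriers, membrane proteins of the lysosome and the transcription factor Tfeb. Cathepsins were left out. Members were matched by symbol from a named list, by a rule that uses no measured value. The list itself was chosen with earlier results of these data known, so no p is given for the set as a whole. All 34 were found among the 49315 genes of the count table, and all 34 passed the filter on low counts that left 17579 genes for testing.

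Lysosomes are acid compartments in which hydrolases take apart sugars, sulfated glycans, lipids and proteins brought in by endocytosis, phagocytosis and autophagy. Microglia that clear damaged myelin load this compartment with sphingolipids and cholesterol. Many lysosomal genes share a promoter element bound by Tfeb and related factors, known as the CLEAR element, which is built around the E-box CACGTG. Inherited loss of single members causes lysosomal storage disease, often with damage to the brain.

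RNA was sequenced from flow-sorted CD45int CD11b+ brain microglia of adult mice in 24 libraries, 3 biological replicates in each of 8 groups. Cre+ mice carried Cx3cr1creERT2, a tamoxifen-dependent Cre driven from the Cx3cr1 locus and so present in other cells that use this locus, while Cre- mice did not; tamoxifen was given to both, and the series text names them Dicer1 KO and WT. Naive mice received tamoxifen without cuprizone, and their labels place it at the start, a timing described next. Demyelination mice were fed cuprizone, a copper chelator toxic to oligodendrocytes, for 6 weeks, with tamoxifen at 4 to 5 weeks, called the start; the series text does not say whether these weeks are age or weeks of the experiment, so the interval between both timings is not known here. Remyelination mice had 6 weeks of cuprizone and then 6 weeks of normal diet, with tamoxifen either at the start, as above, or at the peak, in week 5 of cuprizone. The labels do not say how many animals each library holds, so p values measure the spread between libraries.

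The promoters of 4 members are shown here because they carry the ends of the range described below. Gla rose most with cuprizone in Cre- mice, Cd63 rose most in Cre+ mice and differed most between genotypes in naive mice, Sgsh was lower in demyelination and lower in Cre+ in 3 of the 4 states, and Mcoln1 holds a CLEAR core but moved little. Each is given 5′ to 3′ on the strand of the gene from 250 bases before the RefSeq start of the gene (GRCm38.p6), shortened at the 3′ end so that no more than 30 bases lie in GENCODE exons of the same strand, with CACGTG in capitals. The stretches of Gla and Mcoln1 hold 30 such exon bases each, that of Sgsh 26 and that of Cd63 0.
Gla, chrX:134601096-134601255, minus strand: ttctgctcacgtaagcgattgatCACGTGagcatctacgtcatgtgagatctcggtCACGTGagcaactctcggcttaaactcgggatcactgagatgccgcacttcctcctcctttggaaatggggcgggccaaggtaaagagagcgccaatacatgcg
Cd63, chr10:128909095-128909344, plus strand: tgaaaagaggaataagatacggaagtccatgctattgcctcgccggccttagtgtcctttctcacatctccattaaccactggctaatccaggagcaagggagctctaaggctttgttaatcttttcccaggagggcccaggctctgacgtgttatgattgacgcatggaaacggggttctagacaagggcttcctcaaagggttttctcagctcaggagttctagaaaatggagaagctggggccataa
Sgsh, chr11:119355511-119355760, minus strand: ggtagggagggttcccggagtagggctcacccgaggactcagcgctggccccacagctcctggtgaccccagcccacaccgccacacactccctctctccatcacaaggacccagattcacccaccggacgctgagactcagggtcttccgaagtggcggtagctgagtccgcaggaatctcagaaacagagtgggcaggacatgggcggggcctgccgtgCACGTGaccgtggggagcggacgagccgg
Mcoln1, chr8:3500269-3500486, plus strand: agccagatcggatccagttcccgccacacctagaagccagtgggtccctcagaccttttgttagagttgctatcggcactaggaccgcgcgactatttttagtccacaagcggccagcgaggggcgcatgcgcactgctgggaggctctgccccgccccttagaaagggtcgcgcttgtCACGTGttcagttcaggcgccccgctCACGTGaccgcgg

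RefSeq windows of 300 bases, from 250 before to 50 after the start, were on hand for 31 of the 34 members, and both strands were searched. CACGTG was found for 9 of 31 members (29%), against 2187 of 27025 genes with a window (8.09%) and 11.2% of the genes tested. The longer core TCACGTGA, which contains CACGTG, was found for 3 of 31 members (9.68%), namely Gla, Cln3 and Mcoln1. It was found for 1.12% of all genes and 2.08% of the genes tested. For Cln3 only 1 of its 2 windows holds this core. Gla holds it at 228 and 195 bases before the start. Mcoln1 has CACGTG at 71 and 45 bases before the start, Lamp1 has 4 copies at 61, 45, 28 and 15 bases, and Sgsh has a copy at 29 bases. None of these letters was found in the window of Cd63, which begins at chr10:128909095. In GENCODE the Cd63 gene begins upstream, at chr10:128900989, and that end was not searched. GAGGAAGT, a site of the myeloid factor PU.1, was found for 2 of 31 members (6.45%), Gusb and Gla, against 3.69% of all genes and 3.88% of the genes tested. A match describes the letters of the window and is not evidence of binding.

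Naive libraries held 19.48 to 44.53 M counts (M is the SI prefix mega) and demyelination libraries 21.87 to 32.71 M. Depth was lower after remyelination: it ranged from 8.873 to 12.56 M counts for tamoxifen given at the start, and from 8.941 to 12.09 M for tamoxifen given at the peak. Column names of the table differ in style between naive and demyelination, remyelination with tamoxifen at the start, and remyelination with tamoxifen at the peak, so differences between these sets of libraries cannot be told apart from differences of state. Dicer1 gene totals, which sum all exons and so do not resolve a deleted segment, were not called lower in Cre+ in any state and were higher in naive Cre+ (log2 0.72 ± 0.16, SE, adjusted p = 0.00151). In demyelination Dicer1 stood at -0.45 ± 0.16 between genotypes (edgeR, adjusted p = 0.0922). Its genotype difference was called more negative in demyelination than in naive (-1.17 ± 0.23, edgeR, adjusted p = 0.00165). Cx3cr1 stood at 41.46% to 59.27% of the Cre- mean in 9 Cre+ libraries, but at 2.182% in naive Cre+ replicate 1 and at 1.87% and 1.607% in demyelination Cre+ replicates 1 and 3. These 3 libraries are named low-Cx3cr1 libraries below. Member calls in naive, in demyelination, with cuprizone in Cre+ and for the difference of both responses are given with and without them. Other results, among them those of further lysosomal genes, include them. In every state Cx3cr1 was lower in Cre+ than in Cre- libraries, without overlap. Its part in a genotype difference cannot be told apart from that of deleting Dicer1. The summed CPM of 7 microglial markers was far above that of every other cell type examined in all libraries, from 14849 to 48427. The lowest count of any member in any library was 66, for Gla.

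Levels below are counts per M counts on TMM-scaled library sizes (CPM). A gene is called higher or lower when its adjusted p from edgeR's quasi-likelihood test, adjusted over all 17579 genes, is under 0.05, and errors of log2 changes are SE. As a whole the set was highest in demyelination. The mean log2 CPM over the 34 members was 7.94 ± 0.07 in naive Cre- (SD, n = 3) and 7.87 ± 0.03 in naive Cre+. In demyelination it was 8.39 ± 0.06 in Cre- and 8.47 ± 0.07 in Cre+. In remyelination the 4 group means lay between 7.69 and 7.82. Per kilobase of exon, Laptm5, Psap, Cd68 and Hexa were the 4 most abundant members in each of the 8 groups, while Gla ranked last in all 6 groups outside demyelination. Gla moved from 2.643 ± 0.274 CPM per kilobase in naive Cre- to 24.14 ± 3.48 in demyelination Cre-.

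**Figure D1:**
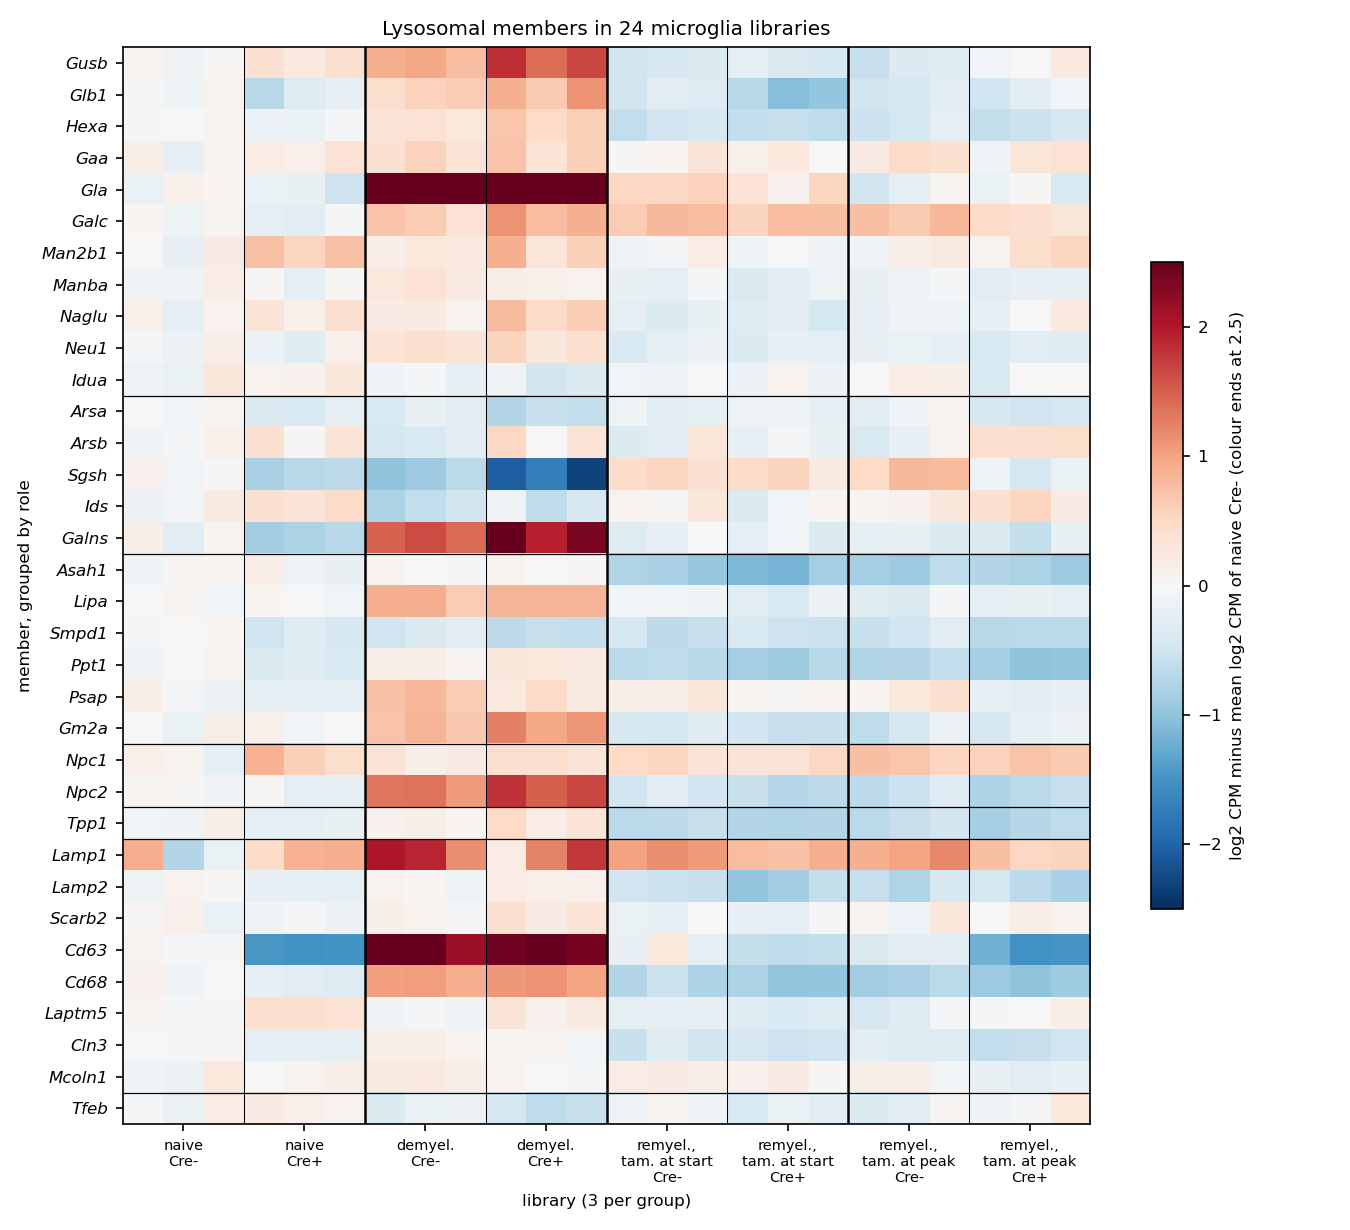
Heat map of the 34 members (rows, grouped by role, with lines between roles) in the 24 libraries (columns, 3 per group); colour is log2 CPM minus the mean log2 CPM of naive Cre- libraries, saturated at 2.5. The darkest red cells are those of the 6 demyelination libraries in the rows of Gla and Cd63, with Galns also dark in demyelination Cre+. The darkest blue cells are those of demyelination Cre+ in the row of Sgsh.

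With cuprizone in Cre- mice, 8 of the 11 glycosidase genes were called higher and 3 of the 5 sulfatase genes lower. Of 6 genes for lipid hydrolases and their cofactors 3 were higher, and of 8 membrane protein genes 3. Of the 34 members 16 were called higher and 4 lower than in naive Cre- microglia, against 19.7% of all genes tested called higher and 16.2% lower. The median log2 change was 0.22 over the members and 0.04 over all genes.

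Among glycosidases, 8 of 11 rose. Gla, alpha-galactosidase A, which removes terminal galactose from globotriaosylceramide, stood at 7.63, 9.354 and 8.908 CPM in naive Cre- libraries and at 87.8, 82.61 and 66.03 CPM in demyelination. Every demyelination library was far above every naive library (log2 3.18 ± 0.14, adjusted p = 4.54e-15). Gusb, beta-glucuronidase, stood at 478.5, 429.1 and 469.7 CPM in naive and 864.7, 893.0 and 778.6 CPM in demyelination (0.88 ± 0.11, adjusted p = 2.85e-07), again without overlap. Galc, which cleaves the myelin lipid galactosylceramide, rose by 0.58 ± 0.11, and Glb1, beta-galactosidase, by 0.55 ± 0.13. Hexa, a subunit of beta-hexosaminidase, rose by 0.32 ± 0.09, but by 0.11 (adjusted p = 0.327) once GC content and length were corrected for.

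Sulfatases split. Galns, which removes sulfate from keratan sulfate, held 26.73, 19.66 and 25.37 CPM in naive and 65.66, 73.64 and 62.9 CPM in demyelination libraries (1.5 ± 0.15, adjusted p = 1.41e-08). Sgsh, the sulfamidase of heparan sulfate breakdown, went the other way, from 21.74, 19.24 and 19.4 CPM to 10.03, 10.74 and 12.58 CPM (-0.85 ± 0.13, adjusted p = 1.27e-05). Ids, iduronate sulfatase, was lower by -0.62 ± 0.13 and Arsa, which desulfates the myelin lipid sulfatide, by -0.28 ± 0.09. No group of libraries overlapped with its counterpart for any of these 4 genes. Strand of counting is not given in the sources used here, and 21.64% of Sgsh exon bases are shared with Card14 and 18.75% of those of Arsa with C230037L18Rik, so reads of these neighbours cannot be told apart from their own.

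Of the 6 genes for lipid hydrolases and their cofactors, 3 rose and 1 fell. Lipa, the acid lipase that frees cholesterol from its esters, rose by 0.82 ± 0.09, the activator protein gene Gm2a by 0.74 ± 0.11 and Psap, precursor of the saposins, by 0.73 ± 0.10. Smpd1, acid sphingomyelinase, fell by 0.37 ± 0.09. Npc2, which carries cholesterol inside the lysosome, stood at 483.1, 468.8 and 435.0 CPM in naive and 1166.0, 1187.0 and 964.3 CPM in demyelination (1.26 ± 0.11, adjusted p = 8.85e-10). Its partner in the membrane, Npc1, was not called (0.23 ± 0.11, adjusted p = 0.0979), and the peptidase gene Tpp1 was not called (0.10 ± 0.09, adjusted p = 0.432).

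Among the 8 membrane protein genes, 3 rose. Cd63, a tetraspanin of late endosomes, held 501.3, 456.4 and 451.4 CPM in naive and 2800.0, 2685.0 and 2085.0 CPM in demyelination libraries (2.43 ± 0.12, adjusted p = 4.33e-14). Cd68, a macrophage glycoprotein of the LAMP family, rose by 0.99 ± 0.09, or by 0.58 with the correction for GC content and length. Lamp1, a major glycoprotein of the lysosomal membrane, was the least stable member, with 1311.0, 416.4 and 617.0 CPM in naive Cre- and 2820.0, 2587.0 and 1547.0 CPM in demyelination Cre- libraries (1.57 ± 0.37, adjusted p = 0.00317). In a fit of the compared groups alone Lamp1 missed the threshold (1.55, adjusted p = 0.0536). Lamp2, Scarb2, Laptm5, Cln3 and Mcoln1 were not called, with log2 changes from -0.08 to 0.19, nor was Tfeb (-0.23 ± 0.11, adjusted p = 0.125).

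Markers of other cells moved with cuprizone too. Summed over 6 border macrophage markers, Cre- libraries held 18.81 to 26.07 CPM in naive and 104.9 to 166.6 CPM in demyelination, with 6 of 6 called higher. Summed over 6 monocyte markers they held 32.61 to 80.4 CPM in naive and 89.83 to 202.4 CPM in demyelination, with 5 of 6 called higher. The 7 microglial markers summed to 40271 to 48427 CPM in naive and 19942 to 23972 CPM in demyelination, with 5 of 7 called lower. None of these markers was at 0 in all libraries of a group. Their part in the lysosomal changes was not tested. In bulk RNA fewer cells of a type and less RNA per cell cannot be told apart.

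**Figure D2:**
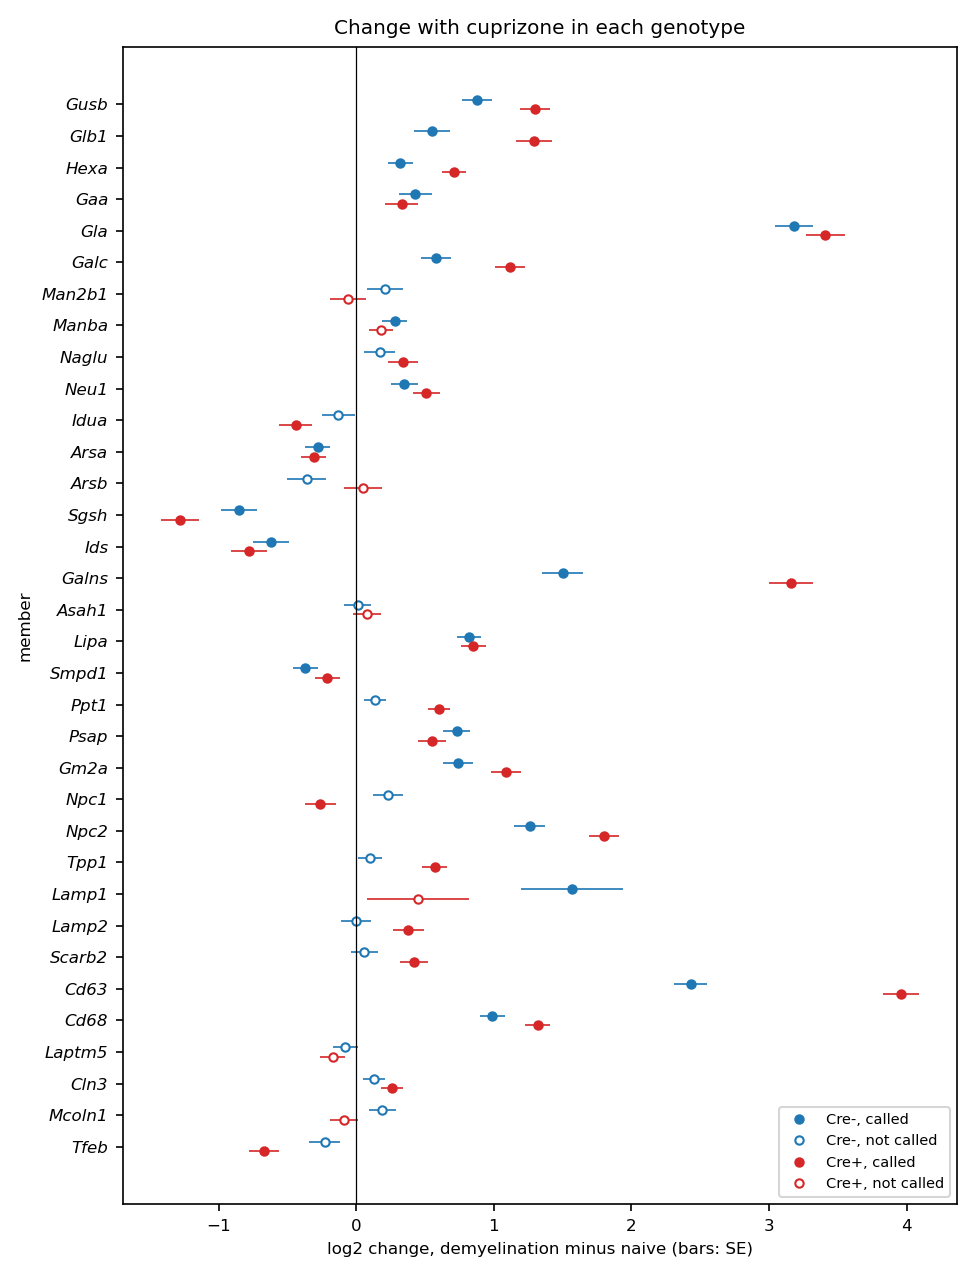
Log2 change from naive to demyelination (horizontal axis, bars are SE) for each member (vertical axis), in Cre- in blue and in Cre+ in red; filled points passed the threshold. Cd63 lies at 2.43 in Cre- and 3.96 in Cre+, Galns at 1.5 and 3.16, and Sgsh at -0.85 and -1.28.

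In Cre+ microglia, 20 of 34 members were called higher in demyelination than in naive and 7 lower, against 26.3% and 25.9% of all genes tested, with a member median of 0.40 and a median over all genes of 0.01. Of the 16 members called higher in Cre-, 14 were called higher in Cre+ as well; Manba and Lamp1 were not. Cd63 went from 172.0, 164.3 and 165.6 CPM in naive Cre+ to 2516.0, 2840.0 and 2453.0 CPM (3.96 ± 0.13, adjusted p = 2.65e-17). Galns went from 13.06, 13.77 and 14.65 CPM to 157.2, 90.75 and 122.6 CPM (3.16 ± 0.16, adjusted p = 1.92e-14). Gla rose by 3.41 ± 0.14 and Npc2 by 1.80 ± 0.11. Sgsh fell from 11.42, 12.4 and 12.73 CPM to 4.804, 6.132 and 4.049 CPM (-1.28 ± 0.14, adjusted p = 2.49e-08). Tfeb, not called in Cre-, was lower in Cre+ (-0.67 ± 0.11, adjusted p = 1.65e-05). Leaving out the low-Cx3cr1 libraries leaves a lone Cre+ library in demyelination, with its spread assumed to be that of the other groups. In that fit Gaa, Naglu, Arsa, Smpd1, Npc1 and Scarb2 lost their calls, and no member gained one.

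The test of the difference between both responses called 9 members, 8 with a more positive change in Cre+ and 1 with a more negative one, against 7.97% and 7.78% of all genes. Galns differed most (1.66 ± 0.21, adjusted p = 2.3e-05), then Cd63 (1.53 ± 0.17, adjusted p = 4.92e-06). Smaller differences were called for Glb1 (0.74), Npc2 (0.55), Galc (0.54), Tpp1, tripeptidyl peptidase (0.47), Ppt1, palmitoyl-protein thioesterase (0.46), Hexa (0.39) and, in the other direction, Npc1 (-0.48). For Gla the difference was 0.23 ± 0.19 and was not called (adjusted p = 0.486). Without the low-Cx3cr1 libraries, which leave a lone Cre+ library in demyelination, 4 members were called, and Galns, Ppt1 and Cd63 were the 3 shared with the full data.

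**Figure D3:**
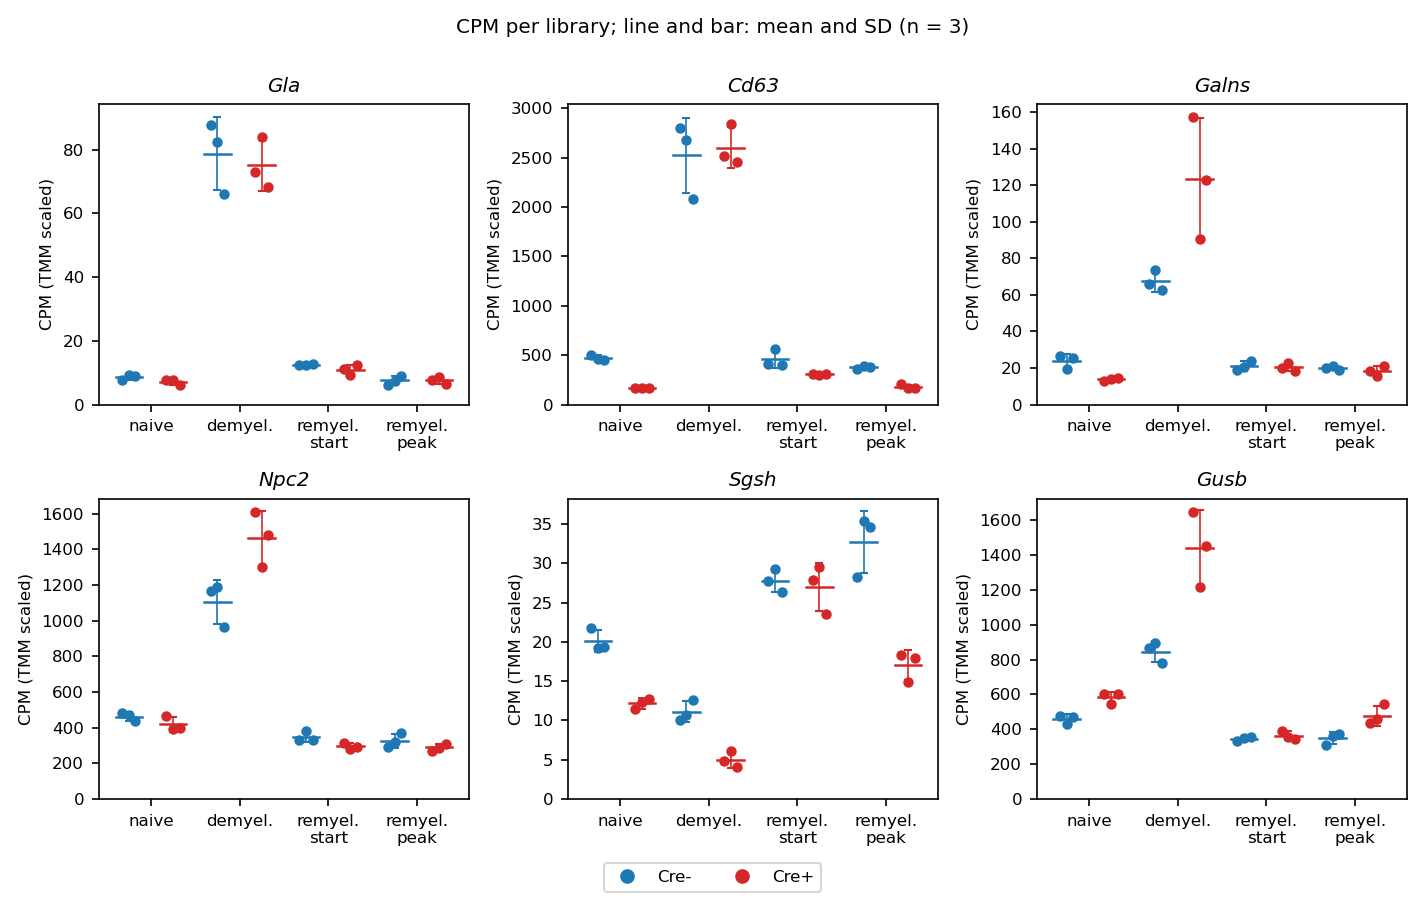
CPM of Gla, Cd63, Galns, Npc2, Sgsh and Gusb (vertical axes from 0) in each library, by state (horizontal axis), Cre- in blue and Cre+ in red; lines and bars are mean and SD of 3 libraries. Naive Cd63 spans 451.4 to 501.3 CPM without Cre and 164.3 to 172.0 CPM with it, while in demyelination both genotypes lie between 2085.0 and 2840.0 CPM.

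In naive mice, where this comparison asks what Cre+ and Cre- microglia differ in before any cuprizone, 5 members were called higher and 9 lower in Cre+, against 14.7% and 13.7% of all genes. The member median was -0.10. Cd63 at 172.0, 164.3 and 165.6 CPM in Cre+ was far below the 451.4 to 501.3 CPM of Cre- (-1.49 ± 0.12, adjusted p = 1.4e-08). Galns was lower by -0.78 ± 0.15 (adjusted p = 0.000402) and Sgsh by -0.72 ± 0.13 (adjusted p = 0.000198). Smaller falls were called for Smpd1 (-0.40), Glb1 (-0.39), Ppt1 (-0.34), Arsa (-0.32), Cd68 (-0.26) and Cln3 (-0.24).

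The 5 members higher in naive Cre+ came from several roles. In Cre- libraries Man2b1, lysosomal alpha-mannosidase, measured 1212.0, 1051.0 and 1409.0 CPM, and in Cre+ libraries 2024.0, 1755.0 and 2022.0 CPM (0.66 ± 0.13, adjusted p = 0.000548). Npc1, the membrane protein of cholesterol export, measured 124.2, 122.1 and 98.08 CPM without Cre and 207.4, 172.0 and 154.3 CPM with it (0.63 ± 0.11, adjusted p = 8e-05). Ids (0.40), Laptm5, a transmembrane protein of blood cell lysosomes (0.39), and Gusb (0.35) were also called. Cre+ libraries lay above all Cre- libraries for 5 members (19.7% of all genes) and below all of them for 13 (20.4% of all genes), which include the 14 called. Leaving out the low-Cx3cr1 library of this state kept 11 of the 14 calls. Gusb (0.32, adjusted p = 0.056) and Cln3 (-0.24, adjusted p = 0.0508) then missed the threshold at about the same log2 change, and Glb1 at a smaller one (-0.26, adjusted p = 0.15). Correcting for GC content and length ended those of Cd68 (-0.06) and Ids (0.31). Summed astrocyte markers were 424.0 to 545.8 CPM in naive Cre- and 284.4 to 329.8 CPM in naive Cre+, and their part was not tested.

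**Figure D4:**
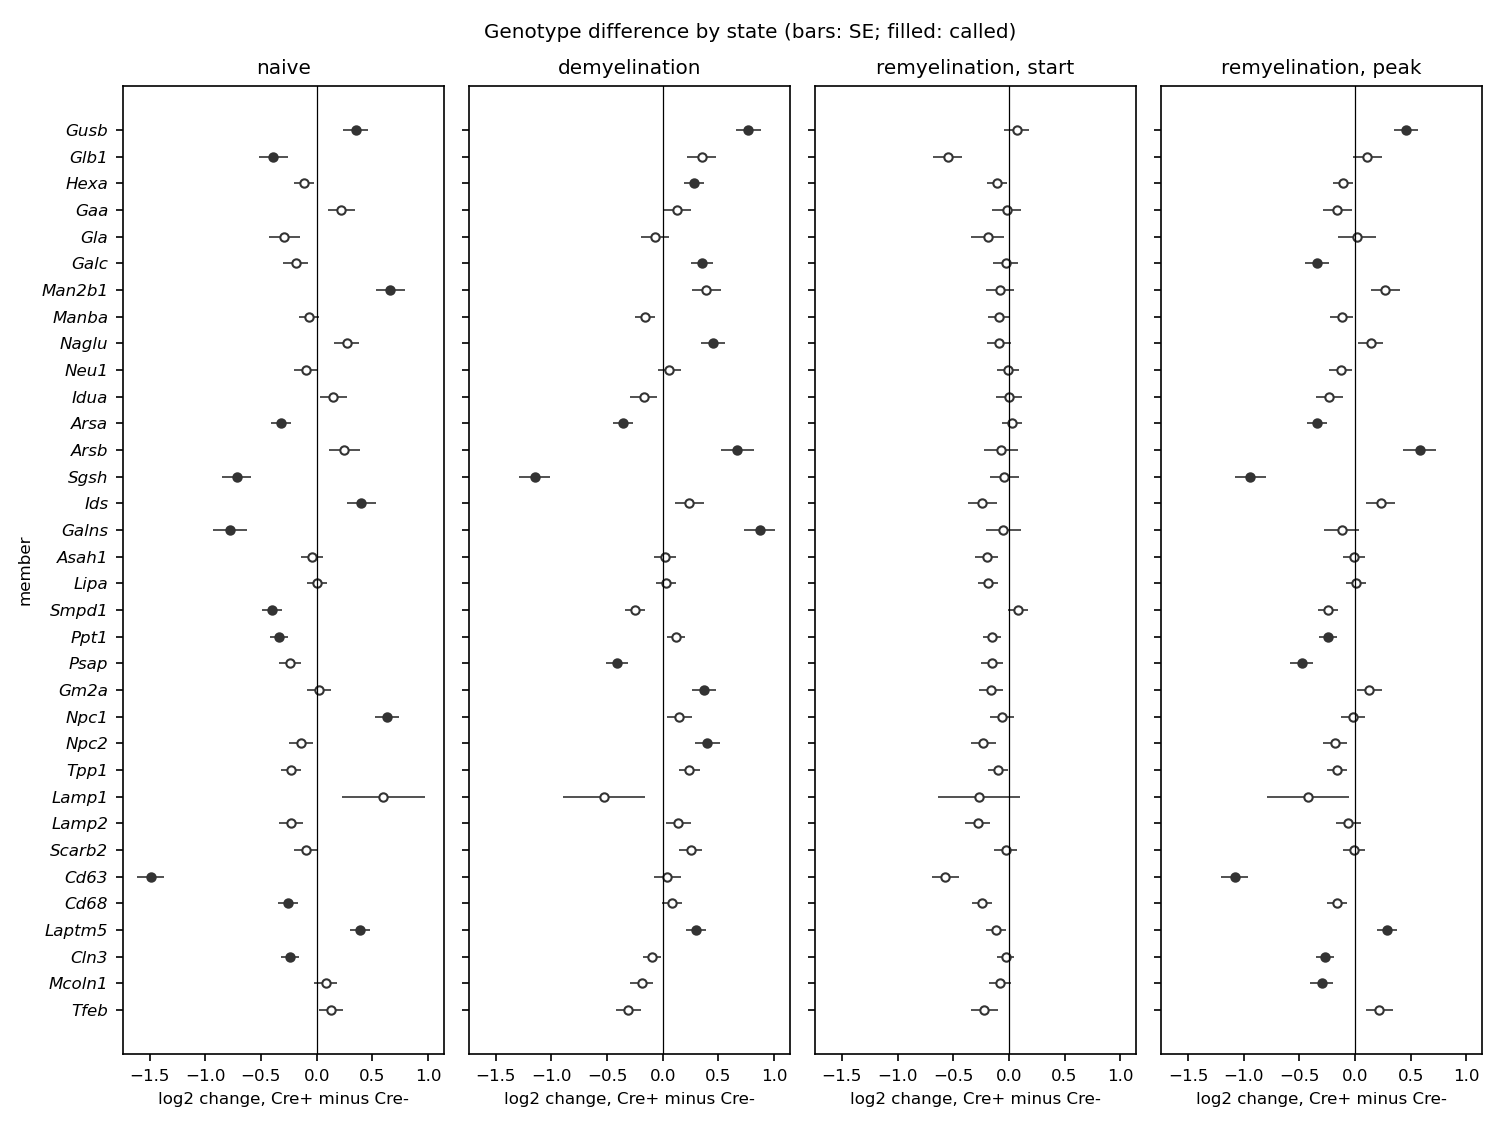
Log2 change between Cre+ and Cre- (horizontal axes, bars are SE) for each member (vertical axis) in the 4 states; filled points passed the threshold. Sgsh lies at -0.72, -1.15, -0.04 and -0.94 from left to right, and Galns at -0.78 in naive and 0.87 in demyelination.

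In demyelination 9 members were called higher and 3 lower in Cre+ than in Cre-, against 5.69% and 3.48% of all genes, with a member median of 0.13. Galns, at 65.66, 73.64 and 62.9 CPM without Cre, reached 157.2, 90.75 and 122.6 CPM with Cre (0.87 ± 0.14, adjusted p = 0.000691). Gusb, at 864.7, 893.0 and 778.6 CPM without Cre, reached 1649.0, 1215.0 and 1454.0 CPM with Cre (0.77 ± 0.11, adjusted p = 0.000137). Arsb, the sulfatase of dermatan and chondroitin sulfate, was higher by 0.67 ± 0.15 (adjusted p = 0.00522), and 39.94% of its exon bases are shared with the genes Gm26527 and Gm47210. Naglu (0.45), Npc2 (0.40), Gm2a (0.37), Galc (0.35), Laptm5 (0.30) and Hexa (0.28) completed the list. Sgsh was the deepest fall, from 10.03, 10.74 and 12.58 CPM to 4.804, 6.132 and 4.049 CPM (-1.15 ± 0.14, adjusted p = 7.81e-05), with Psap (-0.41) and Arsa (-0.36) also lower. Cre+ libraries lay above all Cre- libraries for 15 members (16.4% of all genes) and below all of them for 7 (15.4% of all genes), which include the 12 called.

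All 12 calls of the demyelination state were lost without the low-Cx3cr1 libraries. Cre+ replicate 2 had Cx3cr1 at 41.46% of the Cre- mean. There each of the 12 genes lay on the same side of the Cre- range as in the low-Cx3cr1 libraries, yet closest to it. Galns was 1.35 times the Cre- mean in replicate 2, against 2.33 and 1.82 times in replicates 1 and 3. Gusb was 1.44 times against 1.95 and 1.72. The 12 genes were picked by a call that used all 3 Cre+ libraries, so this order is partly set by that choice. The share of all genes with this order is not given here. Without the low-Cx3cr1 libraries, with replicate 2 alone on the Cre+ side and its spread assumed to be that of the other groups, none of the 12 was called by edgeR (81 genes of all were called); Gusb was then at 0.57 (adjusted p = 0.0592), Sgsh at -0.82 (adjusted p = 0.0612), Galns at 0.47 (adjusted p = 0.387) and Arsb at 0.41 (adjusted p = 0.63). Leaving out Cre+ replicate 1 alone left 3 calls, Gusb, Sgsh and Galns. Leaving out Cre+ replicate 3 or Cre- replicate 3 left 6 each, and leaving out Cre- replicate 2 left 7. Summed neutrophil markers were 1203.0 to 1516.0 CPM in the 3 Cre+ libraries and 191.3 to 784.4 CPM in the Cre- ones, with 0 of 6 called. Monocyte markers summed to 171.6 to 207.9 CPM with Cre and, overlapping, to 89.83 to 202.4 CPM without it, with 3 of 6 called lower in Cre+. Border macrophage markers summed to 73.91 to 84.5 CPM with Cre and, without overlap, to 104.9 to 166.6 CPM without it, with 2 of 6 called lower. Their part in these differences was not tested.

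**Figure D5:**
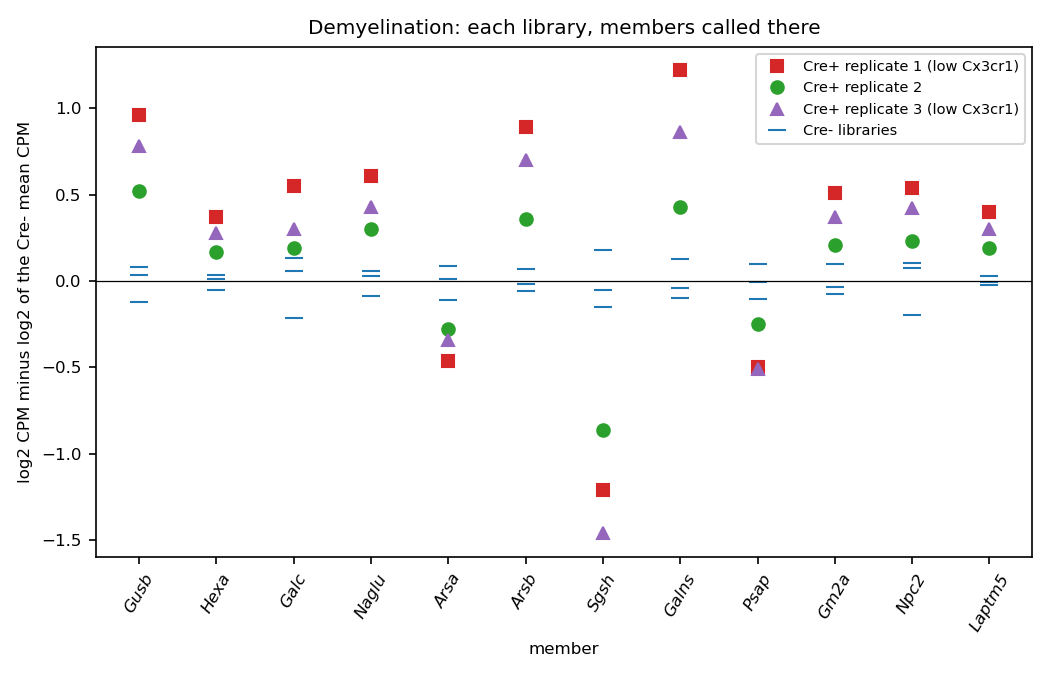
Log2 CPM of each demyelination library minus log2 of the mean CPM of the Cre- libraries (vertical axis) for the 12 members called between genotypes in this state (horizontal axis). Cre+ replicate 2 (green circles) lies nearest to the Cre- libraries (blue dashes) of the 3 Cre+ libraries in all 12 genes, for example at 0.43 for Galns against 1.22 and 0.86. The genes were picked by a call that used all 3 Cre+ libraries.

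With tamoxifen at the start, microglia sampled after remyelination showed 0 members called between genotypes by edgeR, where 0.0341% of all genes were called higher and 0.0% lower. At an unadjusted p under 0.05 there were 5 of 34 members lower in Cre+, against 6.52% of all genes, and 0 higher, against 2.9%. Cd63 was measured at 408.4, 564.0 and 400.0 CPM without Cre and at 311.3, 301.6 and 311.6 CPM with Cre (-0.57 ± 0.12, adjusted p = 0.123), and Glb1 at 94.41, 106.6 and 103.0 CPM in Cre- and 79.58, 62.07 and 66.41 CPM in Cre+ (-0.55 ± 0.13, adjusted p = 0.171). Neither gene overlapped between groups. DESeq2 called these 2 genes lower, as did edgeR without the filter on low counts. Cre+ libraries lay below all Cre- libraries for 13 of 34 members, against 9.48% of all genes, and above them for 0, against 5.65%.

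With tamoxifen at the peak, 3 members were called higher and 8 lower in Cre+, against 6.99% and 4.02% of all genes. Cd63 measured 363.3, 388.1 and 384.8 CPM without Cre and 204.0, 165.4 and 169.4 CPM with it (-1.08 ± 0.12, adjusted p = 3.67e-06). Sgsh measured 28.21, 35.35 and 34.58 CPM without Cre and 18.34, 14.88 and 17.96 CPM with it (-0.94 ± 0.14, adjusted p = 5.12e-05). Psap measured 3595.0, 4202.0 and 4673.0 CPM without Cre and 3033.0, 2917.0 and 3020.0 CPM with it (-0.48 ± 0.10, adjusted p = 0.00228). For these 3 genes the groups did not overlap, and the call held in each fit that left out a library. Galc (-0.34), Arsa (-0.34), Mcoln1, a calcium channel of the lysosomal membrane (-0.30), Cln3 (-0.27) and Ppt1 (-0.24) were lower, and Arsb (0.58), Gusb (0.46) and Laptm5 (0.29) higher, with overlapping libraries for Laptm5.

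Fewer members passed the threshold when single libraries of the peak state were left out, while no called member's log2 change moved by more than 1.5 times in any of these 6 fits. Leaving out Cre+ replicate 3 or Cre- replicate 2 left 4 calls, and leaving out Cre+ replicate 2 or Cre- replicate 1 left 5. Cre+ replicate 3 held 4306.0 CPM of summed neutrophil markers, where the other 5 libraries of this state held 151.0 to 395.6 CPM, and 639.6 CPM of summed monocyte markers against 55.17 to 92.63. Summed astrocyte markers were 578.0 to 799.6 CPM in the Cre- libraries and 330.7 to 433.7 CPM in the Cre+ ones, and their part was not tested. Without Cre+ replicate 3, Cd63 was at -1.03 (adjusted p = 4.8e-05), Sgsh at -0.98 (adjusted p = 0.000281), Psap at -0.48 (adjusted p = 0.0119) and Arsb at 0.58 (adjusted p = 0.0413). Gusb was then at 0.36 and missed the threshold (adjusted p = 0.0626). The other 6 missed it with log2 changes near those above: Arsa -0.35, Cln3 -0.30, Mcoln1 -0.30, Galc -0.29, Ppt1 -0.22 and Laptm5 0.24.

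Between the tamoxifen timings the genotype difference itself differed for 2 members, against 2.87% of all genes called more positive and 0.893% more negative at the peak. Sgsh was the first, at -0.90 ± 0.19 (adjusted p = 0.00699), called in each fit that left out a library. Glb1 was the second, at 0.65 ± 0.18 (adjusted p = 0.0422), and lost the call when any of 8 of the 12 libraries was left out. Without peak Cre- replicate 3 alone 5 members were called. For Cd63 the difference was -0.51 ± 0.17 and was not called (adjusted p = 0.0894).

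Most cuprizone changes were in the opposite direction between demyelination and remyelination with tamoxifen at the start. In Cre- mice 2 members were called higher and 19 lower, against 26.3% and 28.3% of all genes, and in Cre+ mice 3 higher and 24 lower, against 32.5% and 30.8%. Member medians were -0.53 and -0.61, while the medians over all genes were 0.06 and 0.12. These comparisons share the demyelination libraries with those above, so they are not independent of them. The Cre+ counts include the low-Cx3cr1 libraries of demyelination. Both comparisons cross sets of libraries that differ in column style and depth, so state and set cannot be told apart. Of 6 border macrophage markers, 5 were called higher in Cre- and 6 in Cre+, and 0 lower. Of 6 astrocyte markers, 5 were called higher in each genotype and 0 lower. Their part in the lysosomal changes was not tested. Of the 16 members called higher with cuprizone in Cre-, 13 were called lower here, and Sgsh and Ids, called lower before, were called higher. Gla was at 12.27, 12.36 and 12.83 CPM in Cre- (-2.66 ± 0.14, adjusted p = 2.93e-13) and Cd63 at 408.4, 564.0 and 400.0 CPM (-2.46 ± 0.12, adjusted p = 5.58e-14), all below every demyelination library. Sgsh was at 27.77, 29.34 and 26.34 CPM in Cre- (1.32 ± 0.14) and 27.95, 29.52 and 23.6 CPM in Cre+ (2.43 ± 0.14, adjusted p = 1.95e-13), above every demyelination library. Asah1, acid ceramidase, and Ppt1 were lower by -0.85 and -0.80 in Cre-, or by -0.42 and -0.37 with the correction for GC content and length.

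Against naive Cre- libraries, those of Cre- remyelination with tamoxifen at the start had 5 members higher and 14 lower, against 28.8% and 27.4% of all genes. Here too the sets of libraries differ in column style and depth, so state and set cannot be told apart. Asah1 was lowest relative to naive, with 735.1, 713.8 and 642.0 CPM against 1159.0, 1300.0 and 1280.0 CPM (-0.84 ± 0.10, adjusted p = 2.62e-07; -0.50 with the correction). Cd68 was at 845.3, 964.8 and 823.7 CPM against 1505.0, 1314.0 and 1383.0 CPM (-0.67 ± 0.09, adjusted p = 6.22e-07). Neither gene overlapped between groups. Galc was at 68.6, 76.9 and 74.74 CPM against 45.83, 40.52 and 45.89 CPM (0.74 ± 0.11, adjusted p = 2.16e-06), and was not called between demyelination and remyelination (0.16 ± 0.11, adjusted p = 0.216). Gla remained above naive (0.52 ± 0.15, adjusted p = 0.00386), and Cd63 did not differ beyond the threshold (-0.04 ± 0.12, adjusted p = 0.804). Sgsh (0.47) and Npc1 (0.45) were called higher, but stood at 0.02 (adjusted p = 0.912) and 0.08 (adjusted p = 0.559) with the correction for GC content and length. Summed border macrophage markers were 342.5 to 390.7 CPM in these libraries and summed neutrophil markers 452.9 to 3529.0 CPM, with 6 of 6 called higher in each list, and their part was not tested.

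Another 68 lysosomal genes (other hydrolases, trafficking factors, transporters, subunits of the proton pump and regulators), all tested, give the setting of the pathway. With cuprizone 27 of 68 rose and 12 fell in Cre-, against 19.7% and 16.2% of all genes, and 35 rose and 20 fell in Cre+, against 26.3% and 25.9%. In both genotypes Pld3, an endolysosomal nuclease, had the smallest p among those that rose (1.97 ± 0.10 in Cre- and 2.84 ± 0.11 in Cre+). In Cre- it was followed by Gnptab, which starts the mannose 6-phosphate tag of hydrolases (1.74 ± 0.12), while Cd164, a membrane sialomucin (-1.28 ± 0.14), and Acp2, an acid phosphatase (-0.69 ± 0.10), fell. Tfe3, a close relative of Tfeb, fell in Cre+ (-0.71 ± 0.09).

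Between genotypes 12 of the 68 were higher and 17 lower in naive Cre+, against 14.7% and 13.7% of all genes, with the transporter gene Slc38a9 (0.86 ± 0.11) and the serine carboxypeptidase gene Scpep1 (-0.62 ± 0.10) having the smallest p on each side. In demyelination, with the low-Cx3cr1 libraries included, 13 were higher and 4 lower, against 5.69% and 3.48%. Of the 13, 5 were among the 17 proton pump genes, led by Atp6v1d (0.52 ± 0.11), Atp6v1f (0.44 ± 0.10) and Atp6v1c1 (0.44 ± 0.10). Atp6v0d2 was lower (-1.50 ± 0.35). With tamoxifen at the start 0 were called by edgeR; at an unadjusted p under 0.05, 1 was higher and 15 were lower, against 2.9% and 6.52% of all genes. With tamoxifen at the peak 5 were higher, including Slc38a9 (0.52 ± 0.11), and 4 lower, including Pld3 (-0.50 ± 0.10) and Scpep1 (-0.43 ± 0.10), against 6.99% and 4.02% of all genes.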

How the data were processed

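Gene counts of 24 RNA-seq libraries, 3 per group, were analysed. Per the submitters' processing notes, reads were handled with Trimmomatic 0.36, STAR 2.5.2b, featureCounts of Subread 1.5.2 and DESeq2 on GRCm38; the values deposited are unnormalized counts for each Ensembl identifier. Which strand and multimapping settings were used is not given in the sources here. Symbols and positions came from GENCODE M21 (49056 of 49315 identifiers matched), promoter windows from RefSeq (GRCm38.p6).

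In R 4.3.3, edgeR 4.0.16 fitted 8 group means to all 24 libraries (filterByExpr, TMM, robust quasi-likelihood, 16 residual degrees of freedom), and 11 comparisons were tested, 2-sided, with Benjamini-Hochberg adjustment over 17579 genes and a threshold of 0.05. CPM use TMM-scaled library sizes. The procedure was tested on simulated data. Alternatives were DESeq2 1.42.0, other size factors, no low-count filter, compared groups alone, correction for GC content and length, a replicate block, and leaving out libraries. All 34 members could be named; of the other lysosomal genes, those called with the smallest p, up to 3 per direction. Members and lists were chosen with earlier results of these data known. Results of 1 gene of the marker and other lysosomal lists are not reported here.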

Additional observations from a re-analysis of the deposited data

Results flagged for a closer look

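For 9 members the genotype effect in demyelination differed from that in naive mice by a test of the difference itself. Of these, 8 were more positive and 1 more negative, against 7.97% and 7.78% of all genes. The difference was 1.66 ± 0.21 for Galns (SE, edgeR, adjusted p = 2.3e-05), which was lower in naive Cre+ and higher in demyelination Cre+, and 1.53 ± 0.17 for Cd63 (adjusted p = 4.92e-06), which was lower in naive Cre+ and not called in demyelination (0.04 ± 0.12, adjusted p = 0.871). It was 0.74 ± 0.18 for Glb1 (adjusted p = 0.00649), 0.55 ± 0.15 for Npc2 (adjusted p = 0.0148), 0.54 ± 0.15 for Galc (adjusted p = 0.0139) and 0.47 ± 0.13 for Tpp1 (adjusted p = 0.0129). It was 0.46 ± 0.11 for Ppt1 (adjusted p = 0.00667), 0.39 ± 0.12 for Hexa (adjusted p = 0.0345) and -0.48 ± 0.15 for Npc1 (adjusted p = 0.0279). Leaving out the 3 low-Cx3cr1 libraries leaves a lone Cre+ library in demyelination. The differences were then 1.25 for Galns, 1.75 for Cd63 and 0.53 for Ppt1. For the other 6 they kept their direction, at 0.54 for Npc2, 0.44 for Glb1, 0.42 for Galc, 0.37 for Tpp1, 0.34 for Hexa and -0.25 for Npc1. In that fit the genotype difference of Galns within demyelination was 0.47. Hexa (0.28, adjusted p = 0.12) and Npc1 (-0.33, adjusted p = 0.185) missed the threshold in edgeR with the correction for GC content and length.

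The genotype effect also differed between both tamoxifen timings in remyelination for 2 members, Sgsh (-0.90 ± 0.19, adjusted p = 0.00699) and Glb1 (0.65 ± 0.18, adjusted p = 0.0422). Of all genes, 2.87% were called more positive at the peak and 0.893% more negative. Sgsh kept the call in each fit that left out a library, while Glb1 lost it in most of them.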

How the results depend on the processing

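The number of members called in a comparison stayed within 1.5 times the reported count under each alternative other than leaving out 1 library, with these exceptions. Between genotypes in demyelination 12 became 0 without the low-Cx3cr1 libraries, and the difference between demyelination and naive went from 9 to 4 there and to 14 with DESeq2. With tamoxifen at the start 0 became 2 with DESeq2, 2 without the filter on low counts and 1 with the compared groups alone. Without that filter the count at the peak went from 11 to 7 and the difference between timings from 2 to 4. The cause was not tested. Leaving out 1 library at a time gave 10 to 14 members in naive, 3 to 15 in demyelination, 0 at the start and 4 to 9 at the peak; 7 to 11 and 1 to 5 for both differences; 17 to 20 and 23 to 26 for cuprizone in Cre- and Cre+; and 21 to 23, 26 to 28 and 16 to 19 for remyelination against demyelination in Cre- and Cre+ and against naive.

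Tfeb reversed in Cre+ between remyelination and demyelination, from 0.26 to -0.18 with the correction for GC content and length and to -0.19 with that correction and the replicate block. That correction moved the median of all genes by 0.11 in Cre- and 0.14 in Cre+ in this comparison. The labels give replicate numbers without saying that they pair libraries, and same-numbered libraries correlated at -0.03467 to 0.2814 in their deviations from group means; each Cre+ library was closest to its own number in naive and at the peak, and 1 of 3 was in the other states, a hint from the data. The replicate block gave 15 members in naive, 12 in demyelination, 0 at the start and 9 at the peak. With it Hexa missed the threshold in demyelination (0.27, adjusted p = 0.051) and Man2b1 passed it, and Ppt1 (-0.24, adjusted p = 0.0777) and Cln3 (-0.27, adjusted p = 0.0507) missed it at the peak. Remyelination libraries hold the fewest counts.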
